A study of Homo sapiens with 15 samples.

Results

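The chaperones of the endoplasmic reticulum (ER) and the unfolded protein response were followed as 32 genes, chosen by their names from known ER chaperones, folding enzymes, stress sensors, degradation factors and subunits of the protein translocation channel. All 32 had an entry among the 60558 genes of the expression table. Expression was given in TPM, the length-corrected share of a library's transcripts. Of the 32 genes, 30 averaged at least 5 TPM over all libraries and were tested together with the other genes above that level, 10196 in all, whereas ERN1 and DERL3 lay under it and are given by level.

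The study asked how non-transformed epithelial cells adapt to replication stress when cyclin E1 is overproduced for a long time. RNA-seq was available for 15 libraries in 5 groups of 3. All groups, the control included, were RPE1-hTERT cells, a telomerase-immortalized human retinal pigmented epithelial line, carrying the doxycycline (dox)-inducible CCNE1 construct pINDUCER20-CCNE1 and grown from a single isolated colony. Control cells received no dox. Acute cells received 20 ng/ml dox for 2 days. Proliferative crisis cells received the same dose for 15 days in replicate 1 and for 18 days in replicates 2 and 3, and adapted cells for 39, 41 and 51 days. Recovery cells grew with dox for 31, 42 and 46 days and then without it for 18, 46 and 17 days. The study describes its replicates as independent, taken from adaptations begun at separate times. The days differ within the last 3 groups.

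The ER folds secreted and membrane proteins with the help of chaperones, disulfide isomerases and lectins that bind sugar-tagged clients. When unfolded proteins build up, the sensors encoded by ERN1 (IRE1), EIF2AK3 (PERK) and ATF6 start the unfolded protein response, which slows protein synthesis and raises transcription of chaperone and degradation genes. XBP1, whose mRNA is spliced by IRE1, and ATF6 act on these genes through ER stress elements in their promoters.

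The promoters were searched for exact matches to such elements. RefSeq start sites (GRCh38.p14) gave windows from 250 bases before to 50 bases after the start for 29 of the 32 genes, PDIA3, DERL1 and DERL3 being the other 3. The windows were searched on both strands for the ER stress element ERSE (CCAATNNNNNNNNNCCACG), for ERSE-II (ATTGG and CCACG with 1 base of any kind, N, between them) and for the core of the unfolded protein response element (TGACGTG). The sequences of 5 genes are shown because their elements differ in kind, number or orientation and because their expression is described with the groups. HSPA5 (chr9:125241294-125241593, minus strand) and XBP1 (chr22:28800520-28800819, minus strand) held 1 ERSE each, HSP90B1 (chr12:103930160-103930459, plus strand) held 2 in opposite orientations, HYOU1 (chr11:119057156-119057455, minus strand) held 2 copies of ERSE-II, and SDF2L1 (chr22:21642052-21642351, plus strand) held 1. Each runs 5′ to 3′ on the strand of its gene, and capitals mark the fixed bases of ERSE or ERSE-II.
HSPA5: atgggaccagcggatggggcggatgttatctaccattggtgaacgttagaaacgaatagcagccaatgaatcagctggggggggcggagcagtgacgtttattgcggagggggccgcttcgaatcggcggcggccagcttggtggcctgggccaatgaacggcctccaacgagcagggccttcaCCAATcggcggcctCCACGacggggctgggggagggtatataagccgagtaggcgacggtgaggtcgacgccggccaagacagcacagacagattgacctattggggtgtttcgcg
HSP90B1: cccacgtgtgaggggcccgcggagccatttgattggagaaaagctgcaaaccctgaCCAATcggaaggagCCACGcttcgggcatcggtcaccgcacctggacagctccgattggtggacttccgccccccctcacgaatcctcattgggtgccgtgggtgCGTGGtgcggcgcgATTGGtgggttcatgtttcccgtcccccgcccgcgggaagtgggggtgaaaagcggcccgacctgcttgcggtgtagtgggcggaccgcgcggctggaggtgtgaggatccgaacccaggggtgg
XBP1: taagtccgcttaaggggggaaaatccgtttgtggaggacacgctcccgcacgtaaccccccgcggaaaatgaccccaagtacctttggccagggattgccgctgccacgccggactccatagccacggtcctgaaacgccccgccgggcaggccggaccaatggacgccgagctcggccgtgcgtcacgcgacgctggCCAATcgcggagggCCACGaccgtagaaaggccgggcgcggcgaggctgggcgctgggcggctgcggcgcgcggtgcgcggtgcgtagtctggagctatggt
HYOU1: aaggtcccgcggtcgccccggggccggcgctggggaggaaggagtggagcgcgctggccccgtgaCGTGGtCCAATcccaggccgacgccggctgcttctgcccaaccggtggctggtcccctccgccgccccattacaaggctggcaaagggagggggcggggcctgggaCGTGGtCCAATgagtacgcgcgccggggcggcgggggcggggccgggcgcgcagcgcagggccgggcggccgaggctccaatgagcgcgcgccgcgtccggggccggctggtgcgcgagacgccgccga
SDF2L1: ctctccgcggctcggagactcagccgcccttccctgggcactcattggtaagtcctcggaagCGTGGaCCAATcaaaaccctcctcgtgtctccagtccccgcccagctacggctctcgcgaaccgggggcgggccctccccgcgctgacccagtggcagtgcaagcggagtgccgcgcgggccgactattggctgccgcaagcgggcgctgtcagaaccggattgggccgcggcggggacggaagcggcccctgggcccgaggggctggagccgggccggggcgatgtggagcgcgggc

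ERSE was found in 7 of the 29 genes with a window (24.1%), namely HSPA5, HSP90B1, CALR, CANX, PDIA6, CRELD2 and XBP1. Over all 27305 genes with a window it was found in 25 (0.0916%), and in 27 of 35116 windows (0.0769%). ERSE-II was found in HYOU1, HERPUD1 and SDF2L1, 3 of the 29 genes (10.3%), and in 19 of all genes (0.0696%) and of all windows (0.0541%). The short core TGACGTG was found in SEC61A1, SSR3 and HYOU1, again 3 of the 29, and in 654 of all genes (2.40%) and 692 of all windows (1.97%), and the copy in HYOU1 overlapped its distal ERSE-II. The plot of element positions places the HSPA5 element 66 to 48 bases before the start. The ERSE of XBP1 lay 52 to 34 bases before the start, and the copies in HSP90B1 began 194 and 89 bases before it. A match describes the letters of the window and not a bound site. The genes were chosen as known ER genes, the kind on which such elements act, so their shares beside those of all genes are no test. Only exact matches counted, so a gene without a match may still carry a variant or more distant element.

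**Figure D1:**
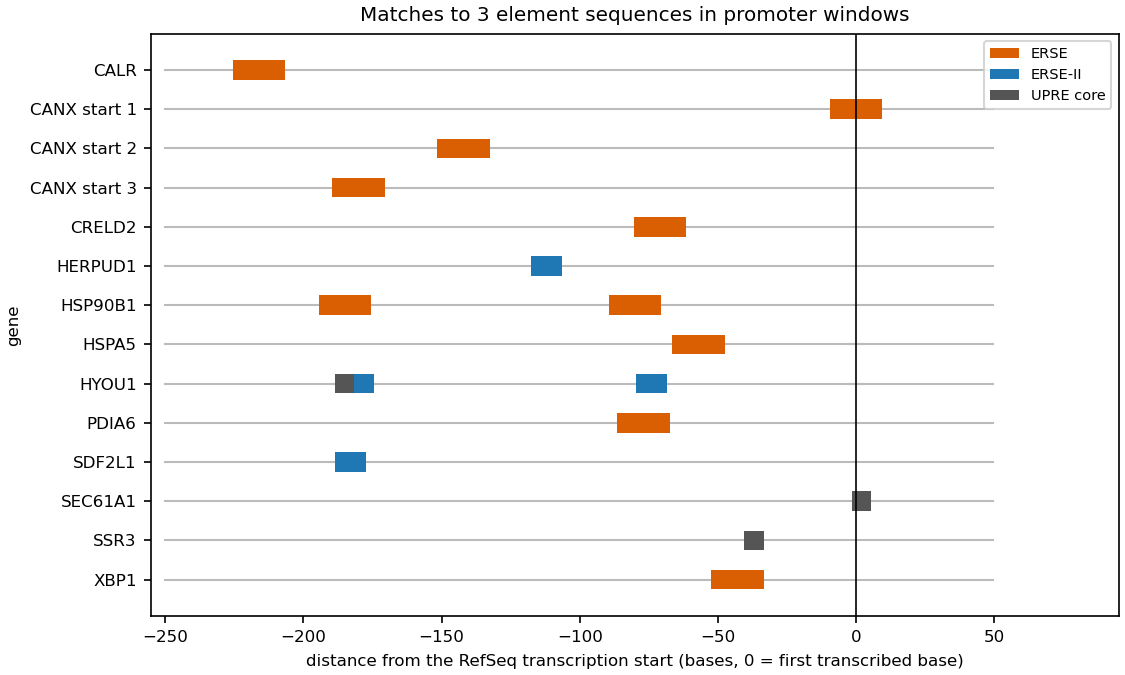
Matches to ERSE, ERSE-II and the unfolded protein response element core (coloured bars) in the promoter windows of the genes that held one, by distance in bases from the RefSeq start (vertical line), with a row for each of the 3 CANX starts. The matches are drawn on windows from 250 bases before to 50 bases after the start (grey lines).

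CCNE1 followed the labels. It was at 7.09, 6.27 and 7.88 TPM in control, 163, 154 and 136 TPM in acute, 44.9, 32.9 and 38.9 TPM in crisis, 43.3, 42.6 and 42.6 TPM in adapted and 5.52, 5.49 and 5.93 TPM in recovery cells. Of 9 retinal pigment epithelium markers, 7 averaged under 1 TPM, with RPE65 listed at 0 in all 15 libraries, and MITF and OTX2 were the 2 expressed. Libraries also differed by the GC content of genes: over 10185 tested genes, the difference of a library from the mean of each gene had a Spearman's rho with GC content between -0.58 (adapted replicate 3) and 0.72 (control replicate 1). All libraries were prepared at the same time, and TPM keeps no read depth, so the depth behind the values is unknown.

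The ER genes were abundant in every library. Their summed level was 5827 to 6038 TPM in control, 6319 to 6508 TPM in acute, 6571 to 6640 TPM in crisis, 6075 to 6564 TPM in adapted and 6497 to 7206 TPM in recovery libraries, or 0.583% to 0.721% of all transcripts. All 12 libraries of cells exposed to dox thus lay above the 3 control libraries, the nearest being adapted replicate 3 at 6075 TPM. Over all tested genes the control libraries also lay low, with median deviations of -0.09, -0.055 and -0.01 on the log2 scale. The median deviation of the tested ER genes is another measure than the sum, and in it the groups overlapped already without rescaling. It was -0.098, -0.096 and -0.038 in control and -0.084 in adapted replicate 3. With median-of-ratios scaling it was -0.002, -0.039 and -0.025 in control and -0.037 in adapted replicate 3. The summed level is not given on rescaled values. In bulk RNA, a change in the mix of cells and a change in RNA per cell cannot be told apart.

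The 3 highest genes by mean TPM were HSP90B1, CALR and CANX. HSP90B1, the ER member of the HSP90 chaperone family (GRP94), averaged 1162 TPM and ranged from 888 to 1504 TPM. The lectin chaperones CALR (calreticulin) and CANX (calnexin) averaged 1122 and 670.5 TPM. The lowest were DNAJB9, ERN1 and DERL3, at means of 7.46, 1.65 and 0.601 TPM.

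Variation between replicates was smaller at the median for this set than for all tested genes, in a comparison not matched for expression level. The median coefficient of variation within groups was 6.96% over the 30 tested ER genes and 10.9% over all tested genes, and 22 of the 30 lay below the latter. The level of EIF2AK3 was the most variable of the tested members, with a coefficient of 26.2% and a range from 6.30 to 17.1 TPM.

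No ER gene passed the test in any comparison. limma on log2(TPM + 1), with Benjamini-Hochberg adjusted p under 0.01 as the threshold, called 0 of 30 in acute against control, against a background of 0.049% of all tested genes. The same test called 0 of 30 in crisis (background 0.0392%), adapted (0.049%) and recovery cells (0.0392%) against control, and 0 of 30 in adapted against acute (0.0196%) and in recovery against adapted cells (0.0294%). A single test of any difference among the 5 groups also called 0 of 30, against 0.0687% of all genes. At an unadjusted p under 0.05 it held 7 of 30 ER genes, SYVN1, WFS1, MANF, DNAJB9, PDIA4, SSR1 and CALR, against 17.1% of all tested genes, and 2 of 30 without control replicate 2. Few genes of any kind were called, 2 to 7 of 10196 in each test, so the values below describe differences that did not pass the adjusted threshold. The 4 comparisons with control share its 3 libraries, and fold changes on the log2(TPM + 1) scale understate those of low genes. Many genes named below were picked by a small p, so groups without overlap add no support to it. The share of all tested genes without overlap is not given.

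**Figure D2:**
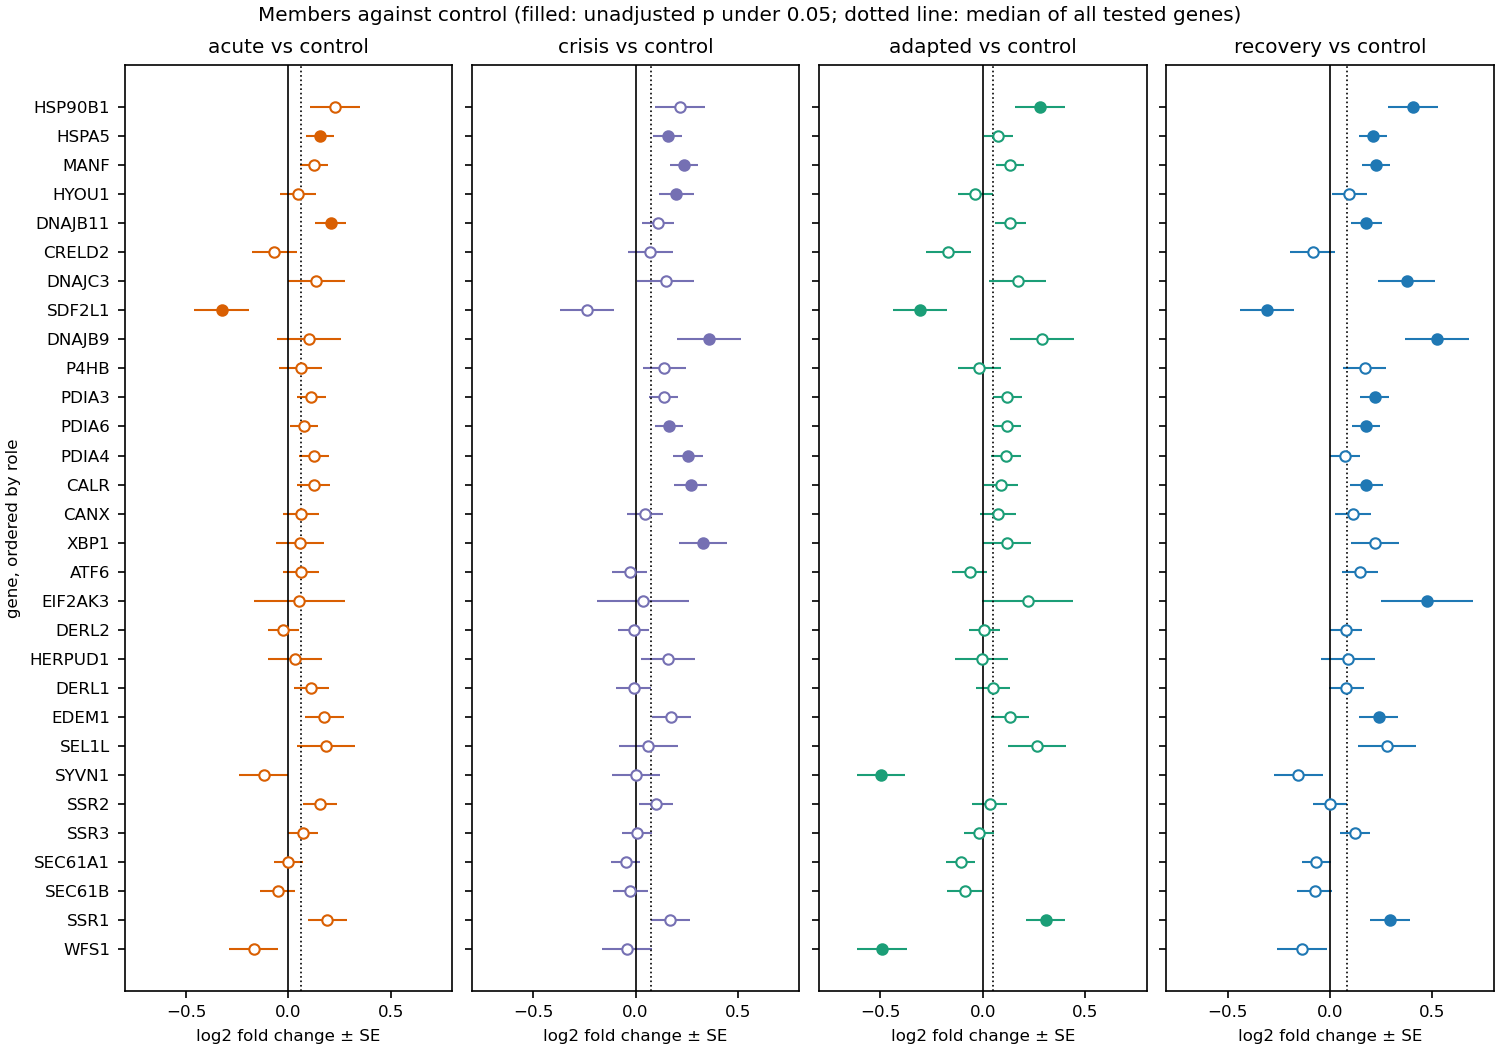
log2 fold change (log2(TPM + 1) scale) with its standard error for each tested ER gene against control, by role, in acute, crisis, adapted and recovery cells. Filled points have an unadjusted p under 0.05, with 8 genes higher in crisis and 12 in recovery, and the dotted line is the median of all tested genes.

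After 2 days of dox the ER genes lay slightly above control, about as far as other genes did. Their median log2 fold change was 0.08, against 0.06 for all tested genes. At an unadjusted p under 0.05, 2 of 30 were higher, against a background of 7.52%, and 1 was lower, against 1.67%. Without control replicate 1 the 3 became 0, without acute replicate 2 they became 1, and without control replicate 3 they became 6. With median-of-ratios scaling the median of the ER genes was 0.007, against -0.003 for all tested genes. After a correction for the GC content of genes it was -0.016, against -0.005.

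DNAJB11 (ERdj3), a J-domain co-chaperone of HSPA5, was at 65.8, 70.2 and 74.4 TPM in control and at 81.2, 82.7 and 79.2 TPM in acute libraries. Every acute value lay above every control value. Its log2 fold change was 0.21 (SE 0.08), with a limma adjusted p of 0.474. With median-of-ratios scaling the difference was 0.14, and after the GC correction it was 0.06.

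SDF2L1, which forms a complex with DNAJB11 in the ER, differed in the other direction. It was at 27.5, 22.4 and 21.4 TPM in control and at 20.4, 16.9 and 18.8 TPM in acute libraries, without overlap, and its log2 fold change was -0.33 (SE 0.13, limma adjusted p 0.505), or -0.20 after the GC correction. SDF2L1 had the highest GC content of the 32 genes, at 65.8%.

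HSPA5 (BiP), the central HSP70 chaperone of the ER, was at 274, 285 and 296 TPM in control and at 305, 319.8 and 326 TPM in acute libraries. The groups did not overlap, and the log2 fold change was 0.15 (SE 0.07, limma adjusted p 0.543). After the GC correction it was 0.06. SSR1, a subunit of the translocon-associated protein complex, had the next smallest p, with a log2 fold change of 0.19 (SE 0.10, limma adjusted p 0.559), or 0.06 after the GC correction.

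The sensors stayed close to control in acute cells. EIF2AK3 differed by 0.05 on the log2 scale (SE 0.22), ATF6 by 0.06 (SE 0.09) and XBP1 by 0.06 (SE 0.12), with limma adjusted p values of 0.948, 0.811 and 0.872. After the GC correction the differences were -0.10, -0.05 and -0.02, and with median-of-ratios scaling they were also below 0.

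In proliferative crisis, folding factors of several kinds lay above control. At an unadjusted p under 0.05, 8 of 30 ER genes were higher (26.7%), against a background of 9.32% of all tested genes, and 0 were lower, against 1.83%. The 8 were PDIA4, MANF, CALR, XBP1, PDIA6, DNAJB9, HYOU1 and HSPA5. The median over the ER genes was 0.12 on the log2 scale, against 0.08 for all genes. By role, the 8 comprised 4 of 9 chaperones and co-chaperones, 2 of 4 disulfide isomerases, 1 of 2 lectin chaperones and XBP1, and differences between roles were not tested.

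PDIA4, a disulfide isomerase of the ER lumen, had the smallest p. It was at 139.6, 141.5 and 138 TPM in control and at 169, 167 and 166 TPM in crisis libraries. The group means were 139.9 ± 1.54 and 167 ± 1.62 TPM (SD, n = 3), for a ratio of 1.20. A small spread within groups favours a small p, by which the gene was picked, so it adds no support. The log2 fold change was 0.26 (SE 0.07, limma adjusted p 0.228), or 0.17 with median-of-ratios scaling (limma adjusted p 0.453).

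MANF, a secreted ER stress protein, was at 181, 173 and 169.7 TPM in control and at 203, 213.5 and 201 TPM in crisis libraries. Every crisis value lay above every control value, with a log2 fold change of 0.24 (SE 0.07, limma adjusted p 0.234). CALR, which holds glycoproteins during folding, was at 1059, 1045 and 960.2 TPM in control and at 1275, 1270.0 and 1151 TPM in crisis libraries. The groups did not overlap, and its log2 fold change was 0.27 (SE 0.08, limma adjusted p 0.261).

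XBP1, the transcription factor gene of the IRE1 branch, was at 46.0, 37.3 and 33.9 TPM in control and at 52.4, 51.6 and 43.6 TPM in crisis libraries. Control replicate 1 lay above crisis replicate 3, so the groups overlapped, and the log2 fold change was 0.33 (SE 0.12, limma adjusted p 0.327). The table has 1 entry for the gene and does not separate spliced from unspliced XBP1 mRNA. HSPA5 was at 329.7, 310.0 and 313 TPM in crisis, with a log2 fold change of 0.16 (SE 0.07, limma adjusted p 0.420), and ATF6 and EIF2AK3 differed by -0.03 (SE 0.09) and 0.04 (SE 0.22), with limma adjusted p values of 0.913 and 0.958.

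The numbers in crisis depended on the scaling. In this and the other comparisons, counts under other settings or without a library are given without the share of all tested genes there. With libraries rescaled by median-of-ratios factors, 3 ER genes were higher and 1 was lower at an unadjusted p under 0.05 and the median difference was 0.04. After the GC correction the numbers were 4 and 1 and the median 0.03. The median of all tested genes in crisis, 0.08 before these settings, is not given under them. In acute cells it moved from 0.06 to -0.003 with the scaling and to -0.005 with the GC correction. The ER medians alone thus do not show whether the difference from other genes became smaller. The differences of PDIA4, MANF, CALR and XBP1 after GC correction were 0.19, 0.15, 0.22 and 0.24 on the log2 scale. Without control replicate 2 the count was 4, and without crisis replicate 1 it was 5. Spearman's rho between GC content and fold change was -0.12 over the ER genes and -0.32 over all tested genes.

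**Figure D3:**
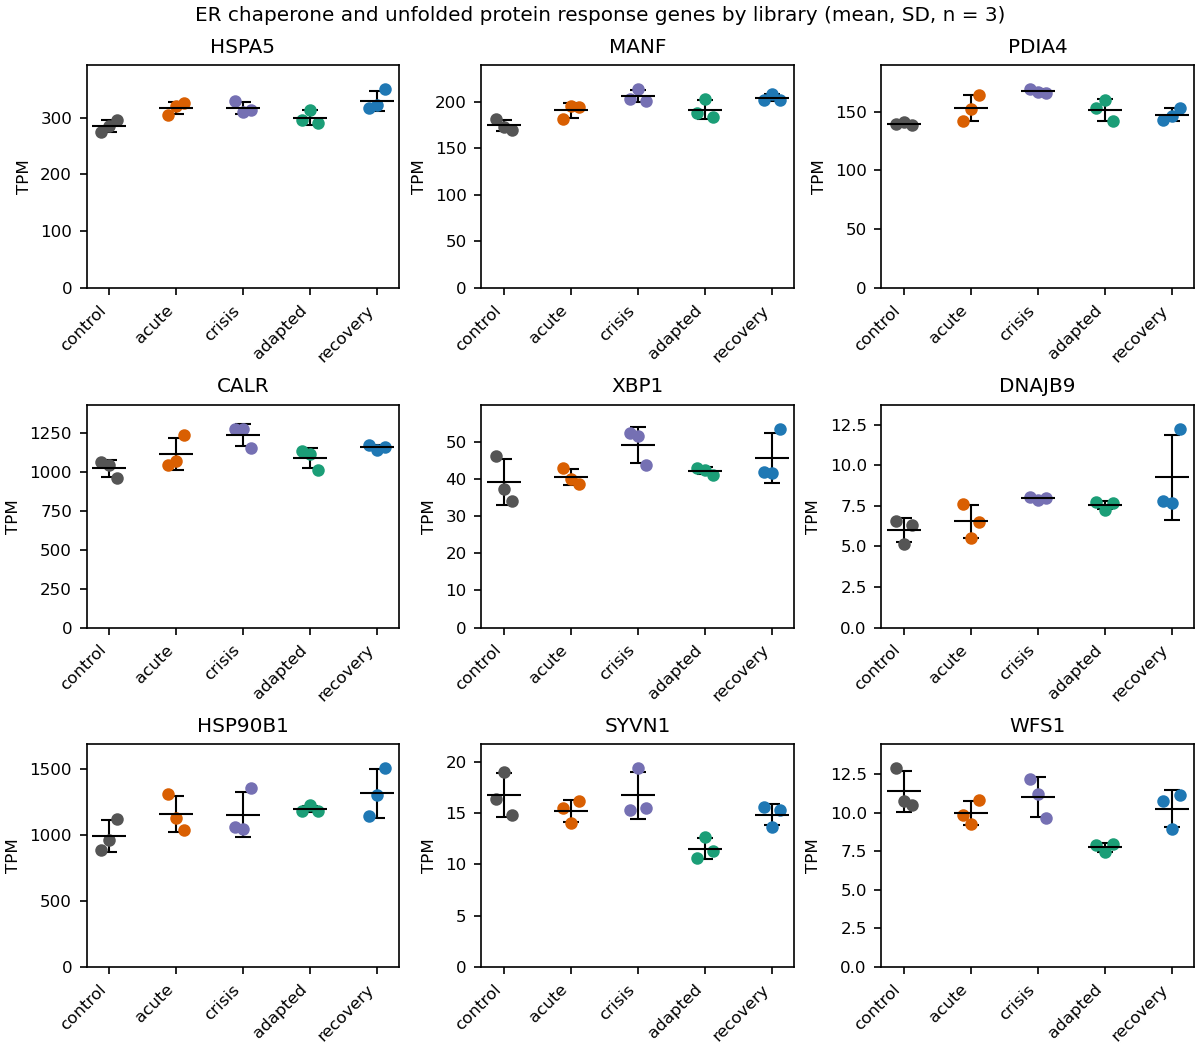
TPM of 9 ER genes in each of the 15 libraries (points) with the mean and SD of 3 libraries per group (bars). PDIA4 sits at 166 to 169 TPM in crisis against 138 to 141.5 TPM in control, and WFS1 at 7.44 to 7.95 TPM in adapted cells against 10.5 to 12.9 TPM in control.

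In adapted cells the ER genes showed no common direction, and the smallest p values belonged to a ligase and a membrane protein that lay below control. At an unadjusted p under 0.05, 2 of 30 were higher (SSR1 and HSP90B1), against a background of 11.4%. Lower were 3 of 30 (SYVN1, WFS1 and SDF2L1), against 9.01%. The median was 0.08 on the log2 scale, against 0.05 for all genes. Without control replicate 1 the 5 became 3, and after the GC correction there were 4 higher and 4 lower and the median was 0.003.

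SYVN1 (HRD1), the ubiquitin ligase of ER-associated degradation, was at 16.4, 19.0 and 14.8 TPM in control, 15.5, 14.1 and 16.2 TPM in acute, 15.3, 19.4 and 15.5 TPM in crisis, 10.6, 12.6 and 11.4 TPM in adapted and 15.6, 13.7 and 15.3 TPM in recovery libraries. The 3 adapted libraries were the lowest of the 15. The ratio of means to control was 0.689, and the log2 fold change was -0.50 (SE 0.12, limma adjusted p 0.0647). SEL1L, its adaptor, had a log2 fold change of 0.27 in the same comparison.

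WFS1 (wolframin), an ER membrane protein mutated in Wolfram syndrome, was likewise lowest in adapted cells. It was at 12.9, 10.8 and 10.5 TPM in control, 9.85, 9.25 and 10.8 TPM in acute, 12.2, 11.2 and 9.64 TPM in crisis, 7.90, 7.44 and 7.95 TPM in adapted and 10.8, 8.92 and 11.1 TPM in recovery libraries. Again the 3 adapted libraries were the lowest of all. The log2 fold change from control was -0.49 (SE 0.12, limma adjusted p 0.0661).

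SSR1 was at 119, 134 and 152 TPM in control and at 158, 177 and 165 TPM in adapted libraries, with no overlap and a log2 fold change of 0.31 (SE 0.10, limma adjusted p 0.115), or 0.16 after the GC correction. SDF2L1 was at 17.8, 21.7 and 17.5 TPM in adapted libraries, overlapping control by adapted replicate 2, with a log2 fold change of -0.31 (SE 0.13, limma adjusted p 0.212). HSPA5 was at 296, 314 and 290.5 TPM and differed from control by 0.08 (SE 0.07, limma adjusted p 0.518). XBP1 differed by 0.12 (SE 0.12), EIF2AK3 by 0.22 (SE 0.22) and ATF6 by -0.06 (SE 0.09), with limma adjusted p values of 0.560, 0.567 and 0.666.

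GC content moved with the adapted values. Spearman's rho between a gene's GC content and its fold change was -0.69 over the 30 ER genes and -0.67 over all tested genes, and genes are not independent replicates. SYVN1, WFS1 and SDF2L1 had GC contents of 57.6%, 61.2% and 65.8%, against a median of 46.9% over the ER genes. After GC correction their differences from control were -0.38, -0.30 and -0.004 on the log2 scale, with limma adjusted p values of 0.0846, 0.203 and 0.992. With median-of-ratios scaling SYVN1 and WFS1 had adjusted p values of 0.0326 and 0.0437.

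In recovery cells, grown again without dox, many ER genes lay above control, as did many other genes. Higher at an unadjusted p under 0.05 were 12 of 30 (40.0%), against a background of 19.7% of all tested genes, and 1 was lower, against 8.88%. The 12 were DNAJB9, HSP90B1, MANF, SSR1, PDIA3, HSPA5, DNAJC3, PDIA6, EDEM1, DNAJB11, CALR and EIF2AK3, and the lower one was SDF2L1. Chaperones and co-chaperones gave 6 of the 12. The median was 0.16 on the log2 scale, against 0.08 for all genes.

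DNAJB9 (ERdj4), a J-domain co-chaperone that also binds the luminal part of IRE1, was at 6.56, 5.16 and 6.33 TPM in control, 7.60, 5.52 and 6.50 TPM in acute, 8.03, 7.89 and 7.96 TPM in crisis, 7.74, 7.25 and 7.65 TPM in adapted and 7.79, 7.70 and 12.3 TPM in recovery libraries. Recovery replicate 3 stood far above the other 14 libraries, and crisis, adapted and recovery values all lay above control. The log2 fold change in recovery was 0.52 (SE 0.16, limma adjusted p 0.0738).

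HSP90B1 was at 888, 957 and 1123 TPM in control and at 1139, 1297 and 1504 TPM in recovery libraries. The groups met closely but did not overlap, and the log2 fold change was 0.41 (SE 0.12, limma adjusted p 0.0749). MANF was at 202, 209 and 202 TPM in recovery libraries, above all control values, with a log2 fold change of 0.23 (SE 0.07, limma adjusted p 0.0750). SSR1 was at 158, 159.7 and 178 TPM, also above control, with a log2 fold change of 0.29 (SE 0.10, limma adjusted p 0.0882).

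HSPA5 was at 316, 322 and 350.3 TPM in recovery libraries, all above control, with a log2 fold change of 0.21 (SE 0.07, limma adjusted p 0.0902). EIF2AK3 was at 6.30, 8.84 and 10.7 TPM in control and at 10.0, 10.3 and 17.1 TPM in recovery libraries. The groups overlapped, and the log2 fold change was 0.47 (SE 0.22, limma adjusted p 0.175). XBP1 and ATF6 differed from control by 0.22 (SE 0.12) and 0.15 (SE 0.09), with limma adjusted p values of 0.219 and 0.262.

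Recovery replicate 3 stood apart among the recovery libraries. It lay above the mean of all libraries for 27 of the 30 ER genes, with a median deviation of 0.13 on the log2 scale, against 0.06 over all tested genes. Without it, 6 ER genes were at an unadjusted p under 0.05 in recovery against control and the median was 0.10. With all recovery libraries and median-of-ratios scaling the median was 0.08. Before that scaling it was 0.16, against 0.08 for all tested genes. The median of all tested genes after the scaling is not given here, so the 0.08 does not show a smaller difference from other genes. Without recovery replicate 3, the log2 fold change was 0.32 for DNAJB9, 0.24 for EIF2AK3, 0.10 for XBP1 and 0.08 for ATF6, whereas it was 0.23 for MANF and 0.17 for HSPA5. Without control replicate 1 the number was 7, and without control replicate 2 it was 8.

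Some markers of several cell types, the line's own included, also stood high in recovery replicate 3, and others did not. The sums of the 6 epithelial and 9 retinal pigment epithelium markers were the highest of the recovery libraries there, at 1067 and 44.7 TPM. The epithelial sum came almost wholly from the keratins KRT8, KRT18 and KRT7, since KRT19, CDH1 and EPCAM averaged under 1 TPM. In the retinal sum, MITF was at 16.2, 20.5 and 26.1 TPM in the recovery libraries and OTX2 at 15.7, 15.1 and 16.9 TPM. VIM, the highest mesenchymal marker, was at 4194, 4173 and 4179 TPM in recovery and at 4674, 4858 and 4701 TPM in control libraries. The mesenchymal matrix gene FN1 was at 1697, 1866 and 3045 TPM and COL1A1 at 9.41, 12.8 and 27.5 TPM in the recovery libraries, and SYT1, on the neuronal and photoreceptor list, at 27.2, 27.6 and 62.8 TPM, whereas TUBB3 of that list was lowest there, at 100.2 TPM. The summed level of the 5 mesenchymal markers was 6040 to 7427 TPM in recovery and 6413 to 6705 TPM in control libraries, with COL1A2 under 1 TPM on average. The sum of the 3 neuronal and photoreceptor markers was 158 to 163 TPM in recovery and 180.0 to 213 TPM in control libraries. Their part in the ER gene values was not tested.

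**Figure D4:**
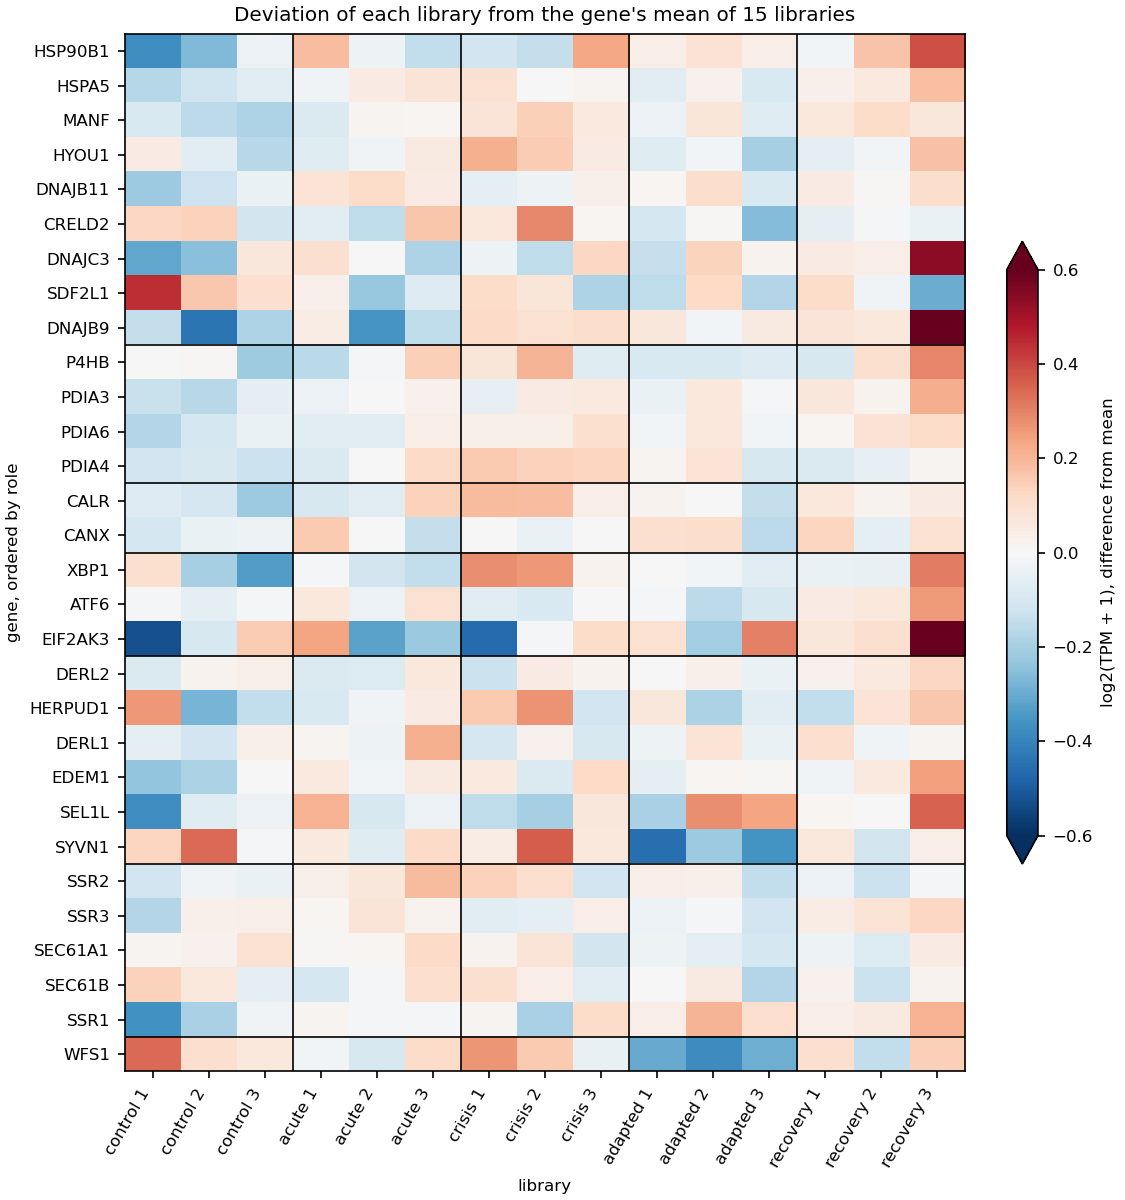
Deviation of each of the 15 libraries from the gene's mean, in log2(TPM + 1), for the 30 tested ER genes ordered by role (horizontal lines), with red above and blue below the mean. Recovery replicate 3 is above the mean for 27 of 30 genes and control replicates 1, 2 and 3 for 9, 9 and 8.

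GC content moved with recovery as well, with a rho of -0.67 over the ER genes and -0.70 over all genes. After the GC correction, 5 ER genes lay above control and 0 below it at an unadjusted p under 0.05. The share of all tested genes after that correction is not given, so these counts have no background. The corrected differences of DNAJB9, HSP90B1, MANF and HSPA5 were 0.28, 0.18, 0.17 and 0.06 on the log2 scale. Those of SSR1, EIF2AK3, XBP1 and ATF6 were 0.10, 0.24, 0.12 and -0.03. DNAJB9 had a GC content of 40.0%, the lowest of the 32 genes.

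Against acute cells, adapted cells had 0 of 30 ER genes higher at an unadjusted p under 0.05 (background 1.36%) and 2 of 30 lower (background 4.89%), namely SYVN1 and WFS1. Their log2 fold changes were -0.38 (SE 0.12) and -0.32 (SE 0.12), with limma adjusted p values of 0.601 and 0.727, and in both genes every adapted value lay below every acute value. The channel subunit SEC61A1 and the translocon-associated subunit SSR2 followed, at -0.11 (SE 0.07) and -0.12 (SE 0.08), with limma adjusted p values of 0.893 and 0.900. HSPA5 differed by -0.08 (SE 0.07), ATF6 by -0.13 (SE 0.09), EIF2AK3 by 0.17 (SE 0.22) and XBP1 by 0.06 (SE 0.12). The median over the ER genes was -0.04, against -0.02 for all genes, and 0.015 without adapted replicate 3. Without acute replicate 3 the 2 genes became 1.

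After dox removal, mean SYVN1 and WFS1 levels were 0.888 and 0.902 of those in control. Against adapted cells, 3 of 30 ER genes were higher at an unadjusted p under 0.05 (background 4.98%) and 0 were lower (background 2.06%). WFS1 differed by 0.36 (SE 0.12), SYVN1 by 0.34 (SE 0.12) and ATF6, the sensor cleaved in the Golgi, by 0.21 (SE 0.09), with limma adjusted p values of 0.479, 0.504 and 0.602. ATF6 was at 25.6, 23.1 and 24.1 TPM in adapted and at 26.8, 27.0 and 31.0 TPM in recovery libraries. All recovery values of the 3 genes lay above all adapted values. HSPA5 differed by 0.13 (SE 0.07), EIF2AK3 by 0.25 (SE 0.22) and XBP1 by 0.10 (SE 0.12), with limma adjusted p values of 0.735, 0.865 and 0.900. The median over the ER genes was 0.09, against 0.03 for all genes, and 0.038 without recovery replicate 3. Without that library EIF2AK3 differed by 0.02, XBP1 by -0.01 and HSPA5 by 0.09.

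ERN1, the gene of the sensor IRE1, had a low level, at 1.40, 1.71 and 2.80 TPM in control, 1.34, 1.68 and 2.65 TPM in acute, 1.35, 1.17 and 1.60 TPM in crisis, 2.34, 1.20 and 2.03 TPM in adapted and 1.22, 0.931 and 1.37 TPM in recovery libraries. All 3 recovery values lay below all control values. With the filter at 1 TPM its log2 fold change in recovery was -0.43 (SE 0.21, limma adjusted p 0.232), and in acute, crisis and adapted cells it was -0.04, -0.30 and -0.05. DERL3, a derlin of ER-associated degradation, ranged from 0.297 to 1.17 TPM.

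How the ER genes varied together was described by the correlation with HSPA5 over the 15 libraries. Of 29 genes, 28 had a positive Pearson's r, with a median of 0.50, and 9 had a Benjamini-Hochberg adjusted p under 0.05 over the 29 in a two-sided permutation test. EDEM1, a lectin that routes misfolded glycoproteins to degradation, was closest, with r = 0.83 (permutation p = 2.3e-04, adjusted p 0.00474) and Spearman's rho = 0.69 (permutation p = 0.00503, adjusted p 0.0365). PDIA3 and PDIA6 each had r = 0.80 (permutation p = 4.9e-04 and 4.1e-04, adjusted p 0.00474), with a rho of 0.62 and 0.73 (permutation adjusted p 0.0703 and 0.0365). DNAJB11 had r = 0.74 (permutation p = 0.00165, adjusted p 0.0120) and MANF r = 0.71 (permutation p = 0.00300, adjusted p 0.0174). SDF2L1 had the only negative r, -0.56 (permutation p = 0.030, adjusted p 0.058).

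These correlations depended on which libraries and which scale were used. Without control replicate 1 and recovery replicate 3, the libraries farthest from the median of HSPA5, the median r was 0.30, and r was 0.61 for EDEM1. Within groups, with values centred on the group means, the median was 0.37 and 1 gene passed. After the GC correction, r was 0.14 for EDEM1, 0.37 for PDIA3 and 0.40 for PDIA6, and 0 of 29 genes passed the permutation test. With median-of-ratios scaling 0 of 29 passed, and the median r was 0.30. The values of r describe co-variation over these libraries, which also differ in GC profile. No share over all tested genes is given for the correlation with HSPA5, so the counts are not shown to be particular to the ER genes. The median deviation of all tested genes was itself -0.09 in control replicate 1 and 0.062 in recovery replicate 3, on the log2 scale.

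**Figure D5:**
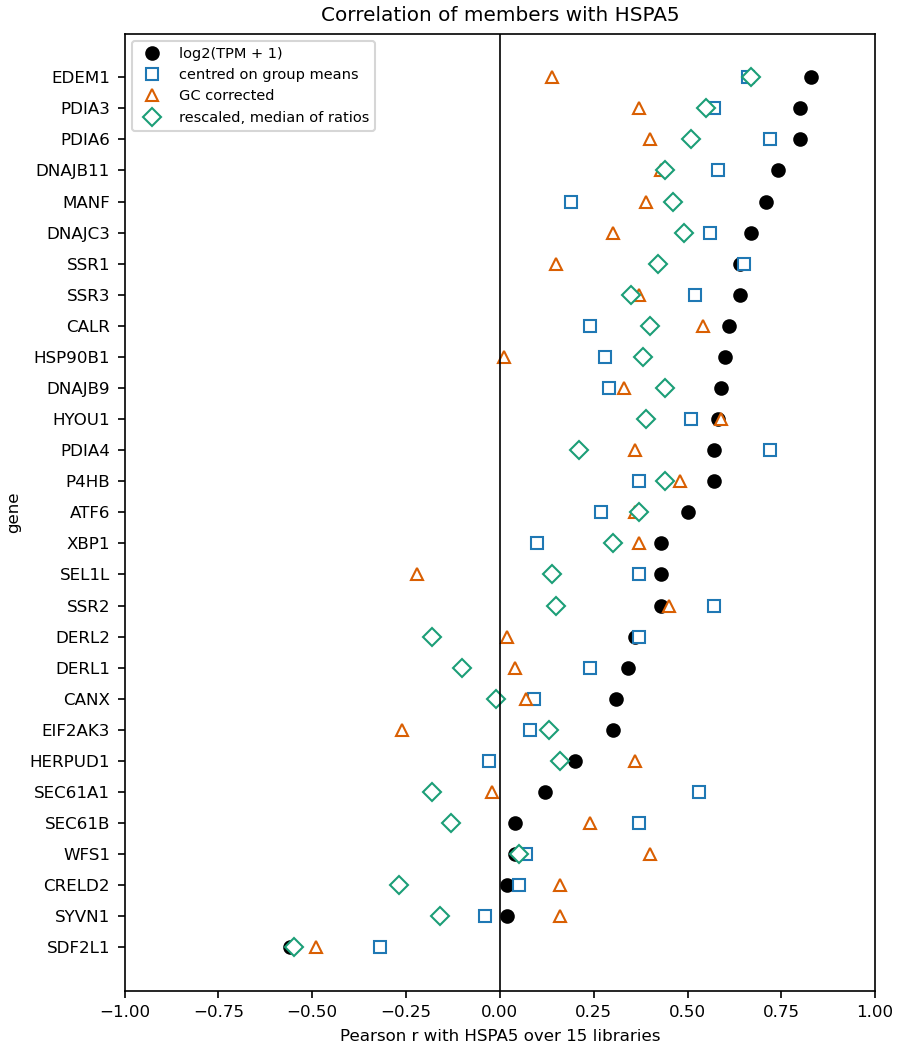
Pearson's r with HSPA5 over 15 libraries for 29 ER genes, on log2(TPM + 1) values (black), centred on group means (blue), GC corrected (orange) and rescaled by median of ratios (green). EDEM1 has r = 0.83 on the table's values and 0.14 after GC correction.

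The genes with an exact match to ERSE or ERSE-II and those without one were set side by side for each comparison. In crisis, the 10 tested genes with a match had a median log2 fold change of 0.16 and the 18 with a window but no match 0.08. SEC61A1 and SSR3, which held only the core TGACGTG, were among the 18. Of the 10, 5 were higher at an unadjusted p under 0.05, and of the 18, 3, against 9.32% of all tested genes. In recovery the medians were 0.14 and 0.16 and the numbers higher 4 of 10 and 7 of 18, against 19.7%. The difference between the 2 kinds was not tested. In acute cells the medians were 0.06 and 0.09, and in adapted cells 0.08 and 0.07. Both kinds held genes above and below control in all 4 comparisons. SDF2L1, with its ERSE-II, lay below control in all 4 groups, with log2 fold changes down to -0.33.

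Other genes of the pathway were taken from 6 lists of 83 genes, of which 77 were tested, and limma called 0 of 77 in every comparison. At an unadjusted p under 0.05, 2 of 77 were above control in acute cells (2.60%, against 7.52% of all tested genes) and 0 below it (against 1.67%). In crisis, 7 were above control (9.09%, against 9.32%) and 0 below it (against 1.83%). In adapted cells, 7 were above (9.09%, against 11.4%) and 3 below (3.90%, against 9.01%). These shares were at or under those of all genes, apart from recovery, where 22 were above (28.6%, against 19.7%) and 2 below (2.60%, against 8.88%). Adapted against acute cells gave 1 higher (1.30%, against 1.36%) and 2 lower (2.60%, against 4.89%). Recovery against adapted cells gave 2 higher (2.60%, against 4.98%) and 1 lower (1.30%, against 2.06%). Their medians against control were 0.06, 0.09, 0.02 and 0.07 on the log2 scale. The smallest limma adjusted p over the 77 genes was 0.427, 0.148, 0.0742 and 0.0529 in these 4 comparisons.

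In the PERK branch, DDIT3 (CHOP), a transcription factor induced in long ER stress, was higher in adapted and recovery than in control and acute libraries. It was at 17.5, 18.0 and 16.3 TPM in control, 19.2, 16.9 and 17.1 TPM in acute, 17.6, 26.8 and 25.1 TPM in crisis, 23.2, 25.0 and 24.8 TPM in adapted and 23.3, 23.7 and 24.5 TPM in recovery libraries. All adapted and recovery values lay above all control and acute values. The log2 fold change was 0.47 (SE 0.12, limma adjusted p 0.0742) in adapted and 0.44 (SE 0.12, limma adjusted p 0.0672) in recovery cells against control, and 0.44 (SE 0.12, limma adjusted p 0.442) in adapted against acute cells. NUPR1, a stress-induced chromatin protein, had the smallest p of this list in crisis, with 0.42 (SE 0.13, limma adjusted p 0.277). TRIB3, a pseudokinase induced by DDIT3, had it in acute cells, with -0.24 (SE 0.13, limma adjusted p 0.572). TRIB3 also lay below control in adapted, at -0.29 (SE 0.13, limma adjusted p 0.232), and recovery cells, at -0.40 (SE 0.13, limma adjusted p 0.0886), where DDIT3 lay above it. The 9 tested genes of this list had a median of 0.10 (adapted) and 0.11 (recovery) against control. In the same order, ATF4 differed by -0.015 and -0.10, PPP1R15A by -0.02 and -0.03, and ASNS by 0.15 and -0.28. NUPR1 (0.17 and 0.22), EIF2S1 (0.16 and 0.24), ERO1A (0.10 and 0.23) and PPP1R15B (0.08 and 0.11) lay above control. DDIT3 thus does not stand for the whole list, and its difference is not given with the GC correction or rescaling.

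Among degradation factors, HM13, the signal peptide peptidase, was at 106, 103 and 101 TPM in control and at 130.3, 129 and 125 TPM in crisis libraries. The groups did not overlap, with a log2 fold change of 0.31 (SE 0.07, limma adjusted p 0.148). OS9, a lectin of the SYVN1 complex, had the smallest p of this list in the other 3 comparisons with control, at 0.17, 0.26 and 0.27 in acute, adapted and recovery cells.

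Among translocation factors, SRP72, a subunit of the signal recognition particle, was at 117, 129 and 128 TPM in control and at 155, 158 and 163 TPM in recovery libraries. Its log2 fold change of 0.35 (SE 0.08, limma adjusted p 0.0529) went with the smallest p of the 77 genes in recovery. It also led this list in crisis, at 0.15, and in adapted cells, at 0.26, and the signal peptidase subunit SPCS3 led it in acute cells, at 0.24.

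Of the other lists against control, the folding factors were led by the chaperone HSPA13 in acute (0.23) and adapted cells (0.26), by the prolyl isomerase FKBP2 in crisis (0.29) and by the disulfide reductase DNAJC10 in recovery (0.43). The oligosaccharyltransferase list was led by OSTC in acute (0.08) and crisis (0.21) and by TUSC3 in adapted (0.16) and recovery cells (0.31). The ATF6 processing and CREB3 list, with 0 of 6 genes at an unadjusted p under 0.05 in every comparison, was led by CREB3L2 in acute (0.14), by the protease MBTPS1 in crisis (0.11), by ATF6B in adapted (-0.19) and by CREB3L1 in recovery cells (-0.17).

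In adapted against acute cells the list leaders beside DDIT3 were ATF6B (-0.20), NPLOC4 (-0.28), DNAJB12 (-0.16), SEC61G (0.17) and KDELR2 (-0.13). In recovery against adapted cells they were ASNS (-0.42), CREB3L2 (0.21), EDEM3 (0.43), CLGN (0.22), TRAM1 (0.20) and KDELR3 (0.29). These are log2 fold changes, and the smallest limma adjusted p was 0.442 and 0.561 in the 2 comparisons.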

How the data were processed

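The authors quantified single-end RNA-seq reads with Kallisto against hg38 and deposited a table of TPM values, with gene annotation release and strand setting not given in the sources used here. The deposited workbook also held 8 columns of fold changes and adjusted p-values from the authors' own DESeq2 comparisons, which were not used. Of 60603 entries, 45 identical second copies were dropped. TPM is not a count and keeps no depth, so no count model could be run; the count-based design of the study was replaced by limma 3.58.1 (R 4.3.3; lmFit, contrasts.fit, eBayes with a trend) on log2(TPM + 1) for genes averaging 5 TPM or more across the 15 libraries, with all 5 groups sharing 1 estimate of the spread, two-sided tests and Benjamini-Hochberg adjustment over 10196 genes. Scripts were tested on simulated data.

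The members and lists were chosen with earlier results of these data known. Genes named in each comparison are HSPA5, ERN1, EIF2AK3, ATF6, XBP1, up to 4 members with the smallest p and every called member; by level, the 3 highest and 3 lowest members; of the other lists, every called gene and the gene with the smallest p per list and comparison. SEL1L, DNAJC3, PDIA3, EDEM1 and others named outside this rule were named after their values were seen. GC content was taken from GENCODE v44 transcripts, and a loess (span 0.3) on it was removed from each library in the GC correction. Correlations used 100000 permutations. Alternatives were pseudocounts of 0.1 and 5, a filter at 1 TPM or none, median-of-ratios scaling, the GC correction, a replicate block alone and with the GC correction, a threshold of 0.05, no variance trend, fits on the 6 libraries of a comparison alone, and fits without 1 library each. Promoter sequences are from RefSeq, GRCh38.p14.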

Additional observations from a re-analysis of the deposited data

How the results depend on the processing

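No ER gene passed the adjusted threshold of 0.01 under any alternative or with any library left out, and at 0.05 none passed with the other settings kept. The counts at an unadjusted p under 0.05 and their alternatives were chosen after seeing the data. The counts under the alternatives are given without the share of all tested genes, so they cannot be set against a background. The median of all tested genes under the scaling and the GC correction is given for acute cells only. With median-of-ratios scaling the median log2 fold change of the ER genes against control was 0.007 (acute), 0.038 (crisis), 0.029 (adapted) and 0.081 (recovery), with 4 genes in crisis and 4 in the test of any difference. After the GC correction the medians were -0.016, 0.034, 0.003 and 0.059, and the counts were 1, 5, 8 and 5, with 1 in adapted against acute. The replicate block with the GC correction gave the same medians, and counts of 1, 5, 8 and 7. The cause was not tested. With only the 6 libraries compared the crisis count was 5, without a filter the count was 5 in recovery against adapted and 11 in the test of any difference, and without a variance trend the latter was 4.

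With 1 library left out, the counts ran from 0 to 6 in acute, 4 to 10 in crisis, 3 to 7 in adapted and 6 to 13 in recovery cells against control, 1 to 2 in adapted against acute, 2 to 4 in recovery against adapted and 2 to 8 in the test of any difference. The medians ran from 0.076 to 0.108, 0.079 to 0.136, 0.05 to 0.1 and 0.097 to 0.178, then from -0.065 to 0.015 and 0.038 to 0.114. The number of genes correlated with HSPA5 was 0 with median-of-ratios scaling, 0 after GC correction and 1 after centring. Of 704 values of named genes under the alternatives, 23 had the other sign. Libraries with the same replicate number were not treated as paired, and the labels do not say whether they came from the same adaptation. Deviations of same-numbered libraries correlated from -0.437 to 0.34, with 11 of 30 pairs over 0.1, which does not settle it. The replicate block alone left the medians at 0.075, 0.123, 0.075 and 0.158 against control, with counts of 3, 8, 5 and 12 genes and 0 called. The values of low genes such as ERN1 and DERL3 are limited by a depth that TPM does not give.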
